A study of Homo sapiens with 9 samples.

Results

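The 6 genes described here are the albumin gene cluster of chromosome 4, namely ALB, AFP, AFM and GC, with ZHX2 and ZBTB20, the repressors of AFP. They were taken by name from 60664 genes in the count table, and all 6 were among the 17207 genes with enough counts to be tested. ALB and AFP were chosen by measured values, their mRNA levels, since ALB was the most abundant mRNA of one knockout line and AFP of the other. Values of ALB and AFP are therefore given as a description, with no test. AFM, GC, ZHX2 and ZBTB20 belong to the set by locus or by function and were tested in a fit over all genes. The whole set was drawn up with earlier results of these data known.

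Messenger RNA was sequenced in Huh-7, a human hepatocellular carcinoma cell line, in 3 lines with 3 libraries each. The lines were WT cells, cells with vtRNA1-1 deleted (1-1 KO) and cells with vtRNA1-2 deleted (1-2 KO). Vault RNAs are short noncoding RNAs made by RNA polymerase III, and the study asked what the loss of each paralog does in liver cancer cells. All lines grew to 80% confluency in DMEM/F12 medium with 10% heat-inactivated serum and antibiotics, and none was treated. The WT and 1-1 KO cells came from another laboratory, whereas the 1-2 KO line was raised from a single cell of the WT line. Each deletion was thus represented by 1 line, and the effect of a deletion cannot be told apart from other differences between lines. RNA was extracted in triplicate, and the study calls the 3 libraries of a line biological replicates without describing how the cultures were kept apart. P-values set a difference between lines against the spread between libraries of the same line, estimated over all 9 libraries together. They rest on 1 line per genotype. In RNA from whole cultures, fewer cells expressing a gene and less of its RNA per cell cannot be told apart.

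Library totals were between 32384469 and 41782387 counts. The deleted RNAs were near 0 in every library, with 0 to 1 counts of VTRNA1-1 and 0 counts of VTRNA1-2, also in WT. The kit selects polyadenylated RNA, which vault RNAs are not known to be, and the genotypes could not be checked from these counts. Replicate 1 of 1-2 KO stood apart from the other libraries of its line. The chi-square of the counts of a pair of libraries, divided by its degrees of freedom, was 15.1 and 16.1 for this library against the others and 2.67 between those. Within WT the largest value was 10.4, between replicates 1 and 3. For members other than ZBTB20, changes against WT in 1-2 KO are also given without replicate 1 of 1-2 KO. Those of ZBTB20 are also given without single WT libraries. Without replicate 3 of WT, the log2 fold change in 1-2 KO went from -0.34 to -0.38 for ZHX2 and from 0.90 to 0.87 for ALB. Of the markers of other cell types, CDH5 and VWF of endothelium had 0 to 7 counts and CD68 of macrophages 0 to 3 counts, whereas PECAM1 of endothelium had 231 to 315 counts in WT and LYZ of myeloid cells 3584 to 4501.

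Albumin, alpha-fetoprotein, afamin and the vitamin D-binding protein are related plasma carrier proteins that hepatocytes secrete, encoded by genes that arose by duplication. AFP is the fetal counterpart of albumin, is silenced in the liver after birth and returns in many liver cancers, where it serves as a serum marker. ZHX2 and ZBTB20 are zinc finger proteins known to hold AFP down in the postnatal liver.

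On GRCh38 with GENCODE 44, ALB (ENSG00000163631) lay at chr4:73397114-73421482, AFP (ENSG00000081051) at chr4:73431138-73456174 and AFM (ENSG00000079557) at chr4:73481745-73504001, all on the plus strand. ALB and AFP were separated by 9.66 kb and AFP and AFM by 25.6 kb. GC (ENSG00000145321) lay on the minus strand at chr4:71741696-71804041, 1.59 Mb before ALB. ZBTB20 (ENSG00000181722) was at chr3:114314500-115147292 on the minus strand and had 24 transcripts over 833 kb. The only overlapping gene with more than 1 count in any library was ZBTB20-AS1, on the opposite strand to ZBTB20, with 7 to 18 counts. Whether the counting used the strand was not given, so reads of these overlapping genes cannot be told apart.

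The promoters of the 3 adjacent genes are shown because their mRNAs were higher in both knockouts than in WT. Each is the 250 bases before the RefSeq transcript start on GRCh38.p14, plus strand, written 5′ to 3′. Capitals mark TATAAA, the TATA box, and CCAAT or its reverse complement ATTGG, the box bound by NF-Y. The windows were chr4:73404037-73404286 for ALB, chr4:73435971-73436220 for AFP and chr4:73481495-73481744 for AFM. The ALB and AFP windows lay inside the GENCODE gene spans, whose outermost transcripts start earlier.
ALB: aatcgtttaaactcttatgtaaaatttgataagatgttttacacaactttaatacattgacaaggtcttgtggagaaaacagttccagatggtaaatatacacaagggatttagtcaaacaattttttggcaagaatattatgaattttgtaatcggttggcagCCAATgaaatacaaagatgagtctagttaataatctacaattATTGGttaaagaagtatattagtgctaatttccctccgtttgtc
AFP: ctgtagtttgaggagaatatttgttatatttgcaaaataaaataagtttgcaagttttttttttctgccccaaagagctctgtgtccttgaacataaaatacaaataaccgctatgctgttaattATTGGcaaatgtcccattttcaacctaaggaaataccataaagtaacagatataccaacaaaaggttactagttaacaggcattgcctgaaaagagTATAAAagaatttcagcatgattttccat
AFM: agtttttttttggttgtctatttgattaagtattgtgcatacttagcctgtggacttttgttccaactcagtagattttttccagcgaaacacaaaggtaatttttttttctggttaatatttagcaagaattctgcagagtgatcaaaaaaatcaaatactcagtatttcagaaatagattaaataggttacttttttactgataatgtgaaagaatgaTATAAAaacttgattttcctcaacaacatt

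Both motifs were searched on both strands. TATAAA was found in AFP, from 29 to 24 bases before the start, and in AFM, from 30 to 25 bases before it, but not, in these letters, in ALB. It was held by 10.7% of the 35116 promoter windows of the RefSeq table. CCAAT was found in ALB once on each strand and in AFP on the minus strand, and 32% of all windows held it. No marked motifs overlapped. A match describes the sequence only.

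ALB and AFP were both higher in the knockouts than in WT, and their order changed between lines. ALB, which keeps water in the blood vessels and carries fatty acids and hormones, was at 2526, 2589 and 2479 CPM in the WT libraries, that is, in counts scaled to a fixed library total after TMM normalization. It was at 9283, 9292 and 9707 CPM in 1-1 KO and at 4416, 4907 and 4893 CPM in 1-2 KO. The lines did not overlap, with 1-1 KO highest and WT lowest. Fold changes against WT were 3.72 in 1-1 KO (log2 1.90, SE 0.04) and 1.87 in 1-2 KO (log2 0.90, SE 0.04, and 0.95 without replicate 1). Among protein-coding genes ALB was between places 19 and 22 in WT, first in each 1-1 KO library and at place 5 or 6 in 1-2 KO.

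AFP was at 1729, 1837 and 1710 CPM in WT, at 8132, 8024 and 8346 CPM in 1-1 KO and at 7037, 7649 and 7571 CPM in 1-2 KO. Both knockouts lay far above WT, and the 1-2 KO libraries lay just below those of 1-1 KO. The fold changes against WT were 4.64 (log2 2.22, SE 0.04) and 4.22 (log2 2.08, SE 0.04, and 2.11 without replicate 1 of 1-2 KO). Between the knockouts AFP was 1.10-fold lower in 1-2 KO, while ALB was 1.99-fold lower there. AFP ranked 31 to 37 in WT, 2 in 1-1 KO and 1 in 1-2 KO. In 1-1 KO, AFP thus stood next to ALB, followed by FN1 at 7054 ± 188 CPM (SD, n = 3). The gene right after AFP in 1-2 KO was EEF1A1 at 5776 ± 366 CPM (SD, n = 3). ALB and AFP together with the other members are shown by library in the plot of CPM.

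**Figure D1:**
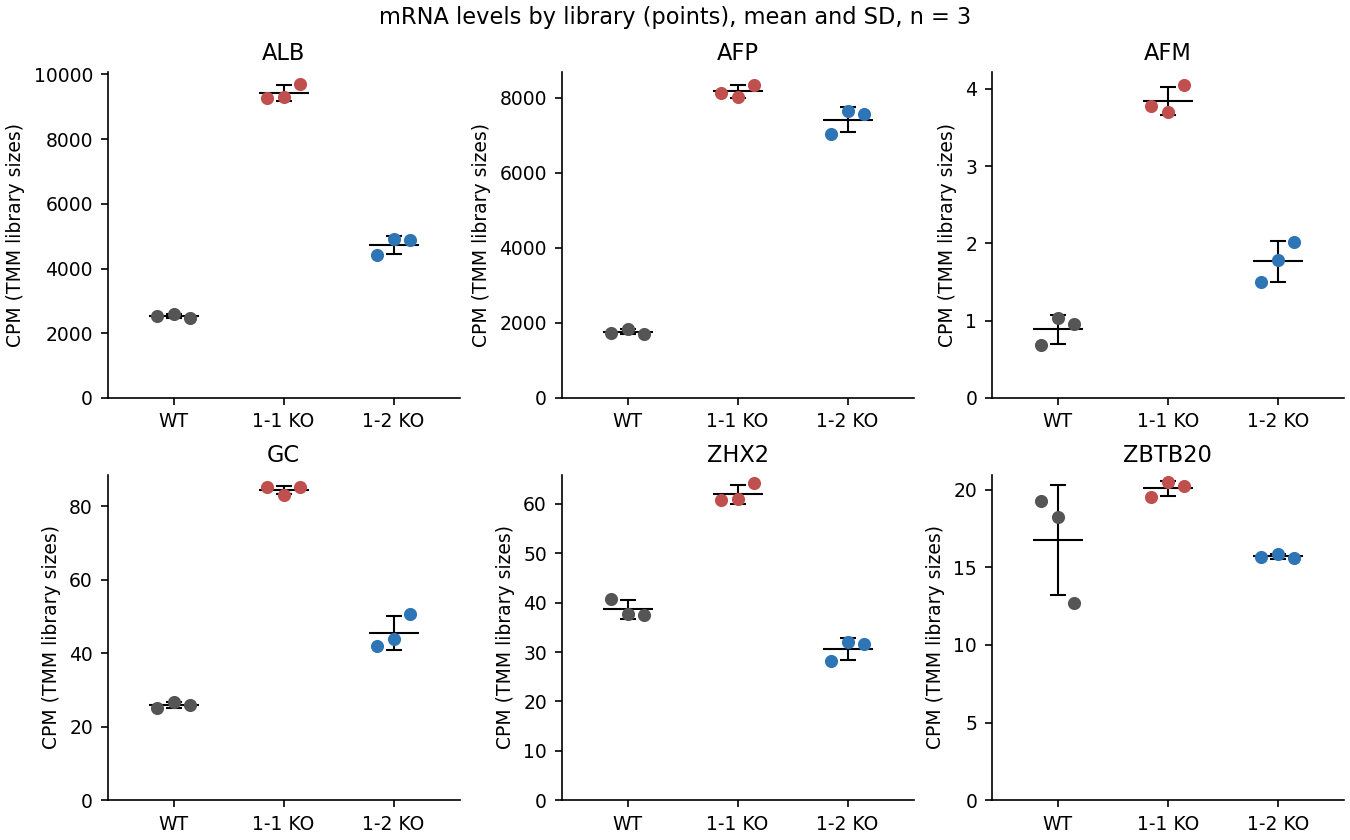
CPM of each of the 6 genes (vertical axes, starting at 0 and different for each gene) in each line; points are libraries and black bars the mean and SD (n = 3). ALB reached 9427 CPM in 1-1 KO and AFP 7419 CPM in 1-2 KO, against 2532 and 1759 CPM in WT, and ZHX2 was above WT in 1-1 KO and below it in 1-2 KO.

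AFM and GC rose in both knockouts, and rose more in 1-1 KO than in 1-2 KO. AFM encodes afamin, a vitamin E-binding plasma protein. It was rare, with 27 to 39 counts in WT, 152 to 165 in 1-1 KO and 63 to 81 in 1-2 KO. In CPM it was at 0.678, 1.04 and 0.951 in WT, 3.78, 3.70 and 4.04 in 1-1 KO, and 1.50, 1.78 and 2.02 in 1-2 KO. None of the lines overlapped. By edgeR's quasi-likelihood test AFM was 4.33-fold higher in 1-1 KO (log2 2.11, SE 0.16, adjusted p = 5.57e-08) and 1.99-fold higher in 1-2 KO (log2 0.99, SE 0.18, adjusted p = 0.000301). Without replicate 1 of 1-2 KO the latter log2 value was 1.10.

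GC encodes the carrier of vitamin D metabolites in plasma. It was at 25.0, 26.7 and 25.8 CPM in WT, at 85.2, 83.2 and 85.2 CPM in 1-1 KO, and at 42.0, 44.0 and 50.8 CPM in 1-2 KO. Here too the lines did not overlap, and the spread was widest in 1-2 KO (45.6 ± 4.60 CPM, SD, n = 3). GC was 3.27-fold higher in 1-1 KO (log2 1.71, SE 0.06, edgeR adjusted p = 1.98e-11) and 1.77-fold higher in 1-2 KO (log2 0.82, SE 0.06, edgeR adjusted p = 5.44e-08). Without replicate 1 of 1-2 KO the latter log2 value was 0.88. GC, 1.59 Mb from ALB and on the other strand, was thus at log2 1.71 and 0.82 where ALB was at 1.90 and 0.90.

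ZHX2 (ENSG00000178764, chr8:122781655-122974510, plus strand) moved in opposite directions in the knockouts. It was at 40.8, 37.6 and 37.5 CPM in WT, at 60.8, 61.0 and 64.1 CPM in 1-1 KO, and at 28.1, 32.1 and 31.6 CPM in 1-2 KO. All 1-1 KO libraries lay above and all 1-2 KO libraries below every WT library. ZHX2 rose 1.60-fold in 1-1 KO (log2 0.68, SE 0.05, edgeR adjusted p = 7.59e-08) and was 1.26-fold lower in 1-2 KO (log2 -0.34, SE 0.06, edgeR adjusted p = 0.000139). Without replicate 1 of 1-2 KO the latter log2 value was -0.28. AFP was thus higher than in WT both in the line with more and in the line with less ZHX2 mRNA.

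ZBTB20 did not pass the test in either knockout against WT. It was at 19.3, 18.2 and 12.7 CPM in WT, at 19.5, 20.5 and 20.2 CPM in 1-1 KO, and at 15.7, 15.8 and 15.6 CPM in 1-2 KO. The WT libraries were spread more widely than those of the knockouts, and replicate 3 of WT lay below all others. The 1-1 KO libraries lay just above every WT library, and those of 1-2 KO lay within the range of WT. The log2 value was 0.26 in 1-1 KO (SE 0.11, edgeR adjusted p = 0.0551) and -0.10 in 1-2 KO (SE 0.11, edgeR adjusted p = 0.474). Without replicate 3 of WT they were 0.10 (edgeR adjusted p = 0.161) and -0.28 (edgeR adjusted p = 0.00148), so that the outcome in 1-2 KO rests on that library. The value for 1-1 KO passed the threshold without replicate 1 of WT (0.37, edgeR adjusted p = 0.0107), replicate 2 of WT (0.32, edgeR adjusted p = 0.0452) or replicate 1 of 1-2 KO (0.25, edgeR adjusted p = 0.0462). With all libraries kept, it also passed under the DESeq2 Wald test (log2 0.25, adjusted p = 0.0395) and under other settings given at the end. ZBTB20 against WT therefore hung on single libraries and, in 1-1 KO, also on the method, unlike the other members.

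Of the 4 tested members, 3 rose in 1-1 KO, where 32.5% of all tested genes rose. In 1-2 KO, 2 rose and 1 fell, where 28.2% of all tested genes rose and 26.2% fell. Libraries of knockout and WT did not overlap for 6 of 6 members in 1-1 KO, against 68.9% of all tested genes, and for 5 of 6 in 1-2 KO, against 58.4%. Most genes in these lines differed, and with 6 genes, chosen in part for their levels, these counts describe the members only. Both comparisons share the WT libraries.

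**Figure D2:**
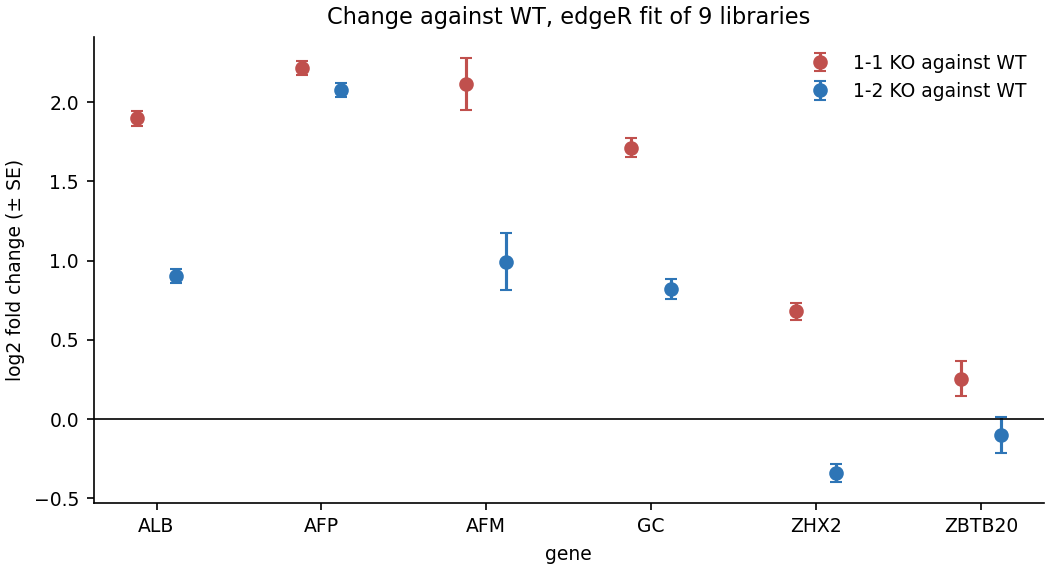
log2 fold change against WT (vertical axis) of the 6 genes (horizontal axis) in each knockout, red for 1-1 KO and blue for 1-2 KO, from the edgeR fit of 9 libraries; bars are ± SE. ALB, AFM and GC spanned 1.71 to 2.11 in 1-1 KO and 0.82 to 0.99 in 1-2 KO, AFP was above 2 in both, and ZHX2 was at 0.68 and -0.34.

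Set against each other, the knockouts differed in every tested member. In 1-2 KO, AFM was 2.17-fold lower than in 1-1 KO (edgeR adjusted p = 8.45e-06) and GC 1.85-fold lower (edgeR adjusted p = 6.85e-09). ZHX2 was 2.03-fold lower (edgeR adjusted p = 9.54e-10) and ZBTB20 1.28-fold lower (edgeR adjusted p = 0.0107). All 4 were called lower and 0 higher, where 65.3% of all tested genes were called, 32.2% lower and 33.1% higher. The libraries did not overlap for 6 of 6 members, beside 69.8%. ALB and AFP are among these 6 and were chosen for their levels in the knockouts, so the count describes the members only. AFP was the member with the smallest difference between the knockouts, at log2 -0.14. Leaving out replicate 1 of 1-2 KO gave log2 values of -1.01 for AFM, -0.83 for GC, -0.96 for ZHX2, -0.35 for ZBTB20 and -0.10 for AFP.

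Levels of different genes were compared as CPM per kb of annotated exon. ALB was at 738 ± 16.1 (SD, n = 3) in WT and AFP at 549 ± 21.4 on this scale. GC was at 12.3, ZHX2 at 8.68, ZBTB20 at 0.473 and AFM at 0.408, and the ranges of ZBTB20 and AFM in WT overlapped. In 1-1 KO the order was ALB at 2748, AFP at 2552, GC at 40.4, ZHX2 at 13.9, AFM at 1.76 and ZBTB20 at 0.568. In 1-2 KO, AFP stood first at 2318, before ALB at 1381, GC at 21.8, ZHX2 at 6.87, AFM at 0.810 and ZBTB20 at 0.444. The exon length of ZBTB20 was 35362 nt over all its transcripts, which lowers its value on this scale if most transcripts are shorter.

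The ratio of AFP to ALB per kb of exon was 0.734, 0.760 and 0.739 in the WT libraries. It was 0.939, 0.926 and 0.922 in 1-1 KO and 1.71, 1.67 and 1.66 in 1-2 KO. The lines did not overlap, and AFP exceeded ALB in 1-2 KO only. With the length of the longest transcript in place of all exons the mean ratios were 0.654, 0.816 and 1.48, in the same order. No test is given, since the ratio is made of the values by which the genes were chosen.

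The ratios of GC and AFM to ALB varied less between the lines than that of AFP to ALB. For 1000 units of ALB per kb of exon there were 16.7 ± 0.440 of GC in WT, 14.7 ± 0.327 in 1-1 KO and 15.8 ± 1.17 in 1-2 KO (SD, n = 3). The range in 1-2 KO, 14.7 to 17.0, overlapped those of both other lines. AFM was at 0.552 ± 0.113, 0.640 ± 0.0149 and 0.584 ± 0.0596 per 1000 ALB (SD, n = 3), with overlapping ranges. AFM rested on few counts in WT, so that its ratio there varied most.

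**Figure D3:**
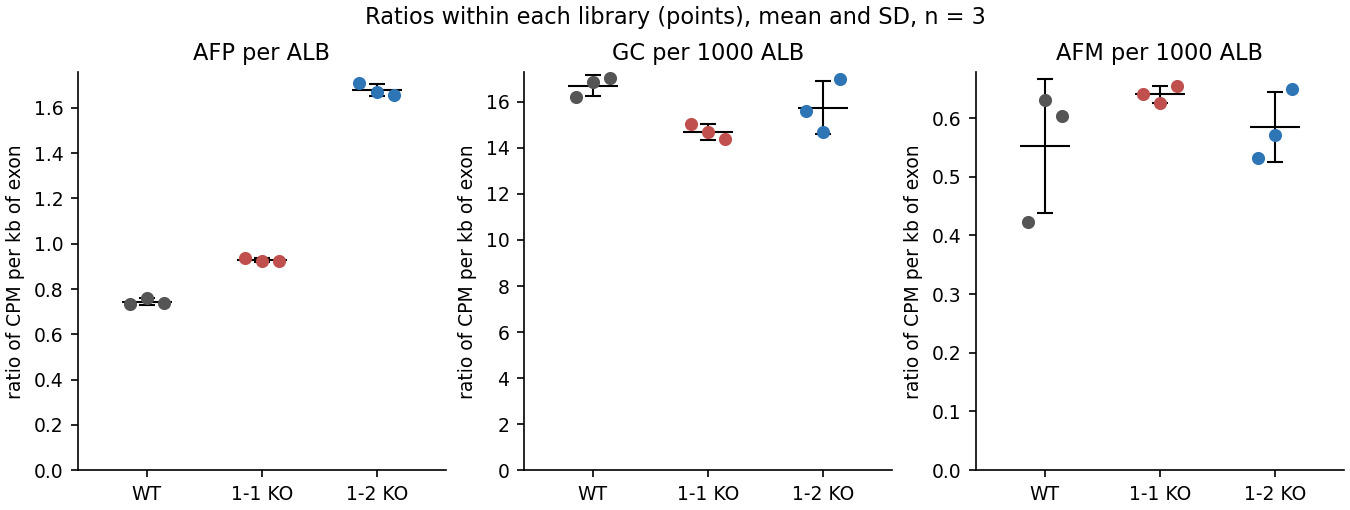
Ratios of CPM per kb of exon within each library (vertical axes, starting at 0) for AFP to ALB, GC per 1000 ALB and AFM per 1000 ALB in the 3 lines; points are libraries and black bars the mean and SD (n = 3). AFP to ALB went from a mean of 0.744 in WT to 0.929 in 1-1 KO and 1.68 in 1-2 KO. GC lay between 14.4 and 17.0 per 1000 ALB, with every WT library above those of 1-1 KO.

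The genes whose pattern over the 9 libraries was most like that of each member were ranked among 11978 protein-coding genes whose mean reached 1 CPM, by the root mean square difference of centred log2 CPM. For ALB the nearest gene was GC, at 0.0944, followed by MATN2, a matrilin of the extracellular matrix, at 0.110 and ISX, a homeobox factor of the intestine, at 0.111. For GC the nearest was ALB, before the collagen gene COL1A2 at 0.0979 and FOSB, an AP-1 subunit, at 0.103. AFM had MAST1 at 0.167, ALB at 0.172 and RPGRIP1 at 0.195. AFP was at place 611 in the ranking for ALB, and in the ranking for AFP, ALB was at place 182, AFM at 214 and GC at 218. The genes nearest to AFP were NOTCH3 at 0.125, MCOLN3 at 0.141 and EDARADD at 0.145. NOTCH3, a Notch receptor, was at 1.47 ± 0.0967 CPM in WT, 7.33 ± 0.513 in 1-1 KO and 7.32 ± 0.281 in 1-2 KO (SD, n = 3).

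The differences between ZHX2 and its nearest genes were smaller than for any other member. This measure also shrinks where changes are small or counts are high, so its size does not compare closeness between members. The genes nearest to ZHX2 included INSR, the insulin receptor, at 0.0342 and HPX, the plasma carrier of haem, at 0.0483. INSR was at 46.6 ± 3.32 CPM in WT, 75.8 ± 1.31 in 1-1 KO and 38.1 ± 1.89 in 1-2 KO (SD, n = 3). For ZBTB20 the nearest were LAT2, OIT3 and CRYBG3, at 0.103 to 0.111. These are descriptions over 9 libraries in 3 lines that share a scaling.

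The transcription factors known to act on the albumin and AFP promoters moved in both directions. Of 20 activators, 10 rose and 6 fell in 1-1 KO, with a median log2 of 0.13. In 1-2 KO 11 rose and 5 fell, with a median of 0.22. The medians of all tested genes were 0.01 and 0.02, and 63.4% (32.5% up, 30.9% down) and 54.4% (28.2% up, 26.2% down) of them were called. NFIC, a nuclear factor I protein, was at 41.5 ± 3.39 CPM in WT, 21.3 ± 1.24 in 1-1 KO and 16.4 ± 1.48 in 1-2 KO (SD, n = 3), and fell in both (log2 -0.96 and -1.34, edgeR adjusted p = 5.29e-08 and 2.77e-09). FOXA1, a pioneer factor of the liver, fell in 1-1 KO (log2 -0.72, edgeR adjusted p = 1.28e-07) and rose in 1-2 KO (log2 0.31, edgeR adjusted p = 0.000405).

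NR5A2, a nuclear receptor that activates AFP in the fetal liver, rose from 86.8 ± 2.87 CPM in WT to 101 ± 1.47 in 1-1 KO and 128 ± 4.49 in 1-2 KO (SD, n = 3). Its log2 values were 0.22 (edgeR adjusted p = 0.000158) and 0.56 (edgeR adjusted p = 1.79e-08).

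Of 4 other proteins reported to repress AFP, 1 rose and 3 fell in 1-1 KO. In 1-2 KO 1 rose, 1 fell and 2 did not pass the test. The shares over all tested genes were 32.5% up and 30.9% down in 1-1 KO, and 28.2% and 26.2% in 1-2 KO. ZFHX3 rose in 1-1 KO (log2 0.18, edgeR adjusted p = 0.00144) and was at log2 0.10 in 1-2 KO (edgeR adjusted p = 0.0641). The orphan receptors NR2F1 and NR2F2 were at -0.18 and -0.26 in 1-1 KO and at 0.23 and -0.14 in 1-2 KO. These values are small and hang on the scaling, for with scaling by library size alone 1 of the 4 fell in 1-1 KO and 0 in 1-2 KO.

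Among relatives, ZHX1 rose in both knockouts (log2 0.30 and 0.41, edgeR adjusted p = 4.51e-05 and 3.40e-06). ZHX3 fell in 1-1 KO (log2 -0.27, edgeR adjusted p = 0.000620) and rose in 1-2 KO (log2 0.24, edgeR adjusted p = 0.00182), the reverse of ZHX2. ZBTB45 was at log2 -0.08 and 0.13 and did not pass the test (edgeR adjusted p = 0.499 and 0.307). The 3 relatives had no shared direction in 1-1 KO, where the median was -0.08.

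**Figure D4:**
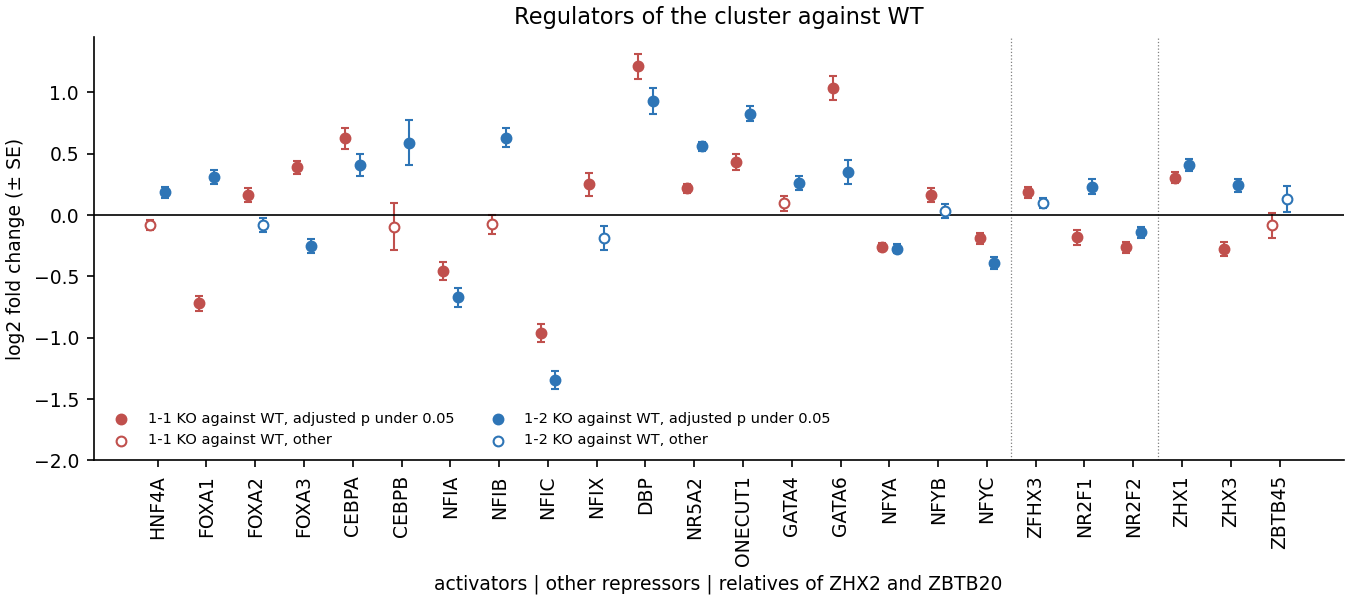
log2 fold change against WT (vertical axis) of reported activators of the albumin and AFP promoters, other repressors of AFP and relatives of ZHX2 and ZBTB20 (horizontal axis, groups divided by dotted lines) in each knockout, red for 1-1 KO and blue for 1-2 KO; bars are ± SE and filled points have an adjusted p under 0.05. Values lay on both sides of 0 in each knockout, with NFIC at -0.96 and -1.34.

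Other genes reported as ZHX2 targets were compared with AFP. GPC3, a cell surface proteoglycan and liver cancer marker, was at 681 ± 30.4 CPM in WT, 885 ± 15.2 in 1-1 KO and 996 ± 23.1 in 1-2 KO (SD, n = 3). It rose in both (log2 0.38 and 0.55, edgeR adjusted p = 9.11e-07 and 2.66e-08). CCNA2, a cyclin, rose in 1-1 KO (log2 0.20, edgeR adjusted p = 0.000951) and was at -0.07 in 1-2 KO (edgeR adjusted p = 0.185). CCNE1, another cyclin, fell in 1-1 KO (log2 -0.26, edgeR adjusted p = 0.00453) and rose in 1-2 KO (log2 0.72, edgeR adjusted p = 4.70e-07). The drug efflux pump ABCB1 fell in both (log2 -0.19 and -0.18). H19, an imprinted noncoding RNA that is silenced after birth like AFP, had too few counts to be tested, with 0 to 3 in WT, 8 to 10 in 1-1 KO and 0 to 6 in 1-2 KO. LPL had 0 to 3 counts in every library.

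Other proteins that hepatocytes secrete moved up and down. Of 17, 11 rose and 3 fell in 1-1 KO (median log2 0.39). In 1-2 KO 6 rose and 8 fell (median -0.08). Over all tested genes 32.5% rose and 30.9% fell in 1-1 KO (median 0.01), against 28.2% and 26.2% in 1-2 KO (median 0.02). TTR, the carrier of thyroid hormone and retinol-binding protein, went from 111 ± 2.35 CPM in WT to 336 ± 27.2 in 1-1 KO and 71.6 ± 2.88 in 1-2 KO (SD, n = 3). FGA, a fibrinogen chain, rose in 1-1 KO (log2 0.54) and fell in 1-2 KO (log2 -0.97), where FGG, another chain, also fell (log2 -0.93). ORM1, an acute phase protein, fell in 1-1 KO (log2 -0.95) and rose in 1-2 KO (log2 0.23). Summed over the list, levels were 16014 to 16789 CPM in WT, 20282 to 20649 in 1-1 KO and 14453 to 15792 in 1-2 KO.

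Receptors and partners of the carrier proteins were also measured. Of 13 tested genes, 10 rose and 3 fell in 1-1 KO. In 1-2 KO 7 rose and 5 fell, and the median log2 was 0.27 in each knockout. All tested genes had shares of 32.5% up and 30.9% down in the former and 28.2% and 26.2% in the latter. With scaling by library size alone 3 fell in 1-2 KO. VDR, the vitamin D receptor, rose from 0.954 ± 0.0337 CPM in WT to 2.82 ± 0.298 and 4.24 ± 0.463 (SD, n = 3, log2 1.56 and 2.15, edgeR adjusted p = 4.56e-07 and 1.46e-08). LRP2, or megalin, which takes up the GC protein with its vitamin D cargo, rose from 2.41 ± 0.245 CPM to 5.48 ± 0.786 and 13.0 ± 0.773 (SD, n = 3, log2 1.19 and 2.43). CAV1, a caveolar protein, fell in both (log2 -0.84 and -0.30). SPARC, a matrix protein that binds albumin, fell in 1-1 KO (log2 -0.48) and rose in 1-2 KO (log2 1.11). CYP24A1, the vitamin D-degrading enzyme, was not tested, with 0 to 2 counts in WT, 1 to 2 in 1-1 KO and 8 to 17 in 1-2 KO.

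Markers of other liver cell types moved with the lines, and their part in the results was not tested. The shares of all tested genes that rose and fell were 32.5% and 30.9% in 1-1 KO, and 28.2% and 26.2% in 1-2 KO. Of 4 bile duct markers, 3 rose and 1 fell in 1-1 KO. In 1-2 KO 1 rose and 2 fell, with summed levels of 310.1 to 353 CPM in WT, 478 to 491 in 1-1 KO and 321 to 428 in 1-2 KO. EPCAM, also a marker of hepatic progenitors, was at log2 1.55 in 1-1 KO and -0.03 in 1-2 KO, SOX9 at 0.36 and -0.51 and KRT19 at 0.39 and 0.33. KRT7 had 11 to 19 counts in WT and 1 in each 1-1 KO library. The 4 stellate cell and fibroblast markers summed to 35.0 to 36.0 CPM in WT, 76.4 to 86.7 in 1-1 KO and 60.8 to 66.9 in 1-2 KO, mostly COL1A2 (log2 1.73 and 0.98). In this list 2 rose and 1 fell in 1-1 KO, and all 4 rose in 1-2 KO. ACTA2, smooth muscle actin, fell in 1-1 KO from 70 to 118 counts in WT to 2 to 5 counts (edgeR adjusted p = 1.68e-09) and rose in 1-2 KO (log2 1.16). COL1A1 was at log2 -0.12 and 0.22, and the receptor gene PDGFRB rose in both (log2 1.61 and 1.87). The 3 endothelial markers summed to 7.39 to 8.04, 6.40 to 7.22 and 0.831 to 1.10 CPM, nearly all PECAM1 (log2 -0.18, edgeR adjusted p = 0.0965, and -3.17). The 3 immune markers summed to 113 to 114, 98.5 to 105 and 19.8 to 20.7 CPM, nearly all LYZ (log2 -0.16 and -2.56). PTPRC, the common leukocyte antigen, rose in both, from 3 to 8 counts in WT to 18 to 26 in 1-1 KO and 36 to 47 in 1-2 KO (edgeR adjusted p = 0.000332 and 2.66e-06).

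The genes around the cluster moved in both directions. Within 2 Mb of ALB, AFP and AFM, 19 other genes were tested, and in each knockout 4 rose and 8 fell, with medians of 0.00072 and -0.0050 on the log2 scale. The share called, 63.2% in each, was near the 63.4% of all tested genes in 1-1 KO, with 54.4% in 1-2 KO. Over all tested genes 32.5% rose and 30.9% fell in 1-1 KO, and 28.2% and 26.2% in 1-2 KO. The nearest tested gene before ALB, ANKRD17 at 138 kb, fell in both knockouts (log2 -0.20 and -0.26, edgeR adjusted p = 0.000876 and 9.78e-05). RASSF6, 67.5 kb beyond AFM, was at log2 -0.25 in 1-1 KO (edgeR adjusted p = 0.170) and fell in 1-2 KO (log2 -2.18, edgeR adjusted p = 2.21e-07), from 3.27 ± 0.593 CPM in WT to 0.719 ± 0.145 (SD, n = 3). The chemokine genes CXCL5 and CXCL8 lie in this region. Apart from ANKRD17, all genes that fell here in 1-1 KO were chemokine genes, which start 237 to 593 kb beyond AFM. These falls thus lay in a run of related genes and were not spread over the region. In 1-2 KO the chemokine genes moved in both directions. CXCL5 was at log2 -0.94 and -0.65, and CXCL8 fell in 1-1 KO (log2 -1.12) and rose in 1-2 KO (log2 0.58).

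Around GC, 5 of 15 genes rose and 6 fell in 1-1 KO. In 1-2 KO 4 rose and 5 fell. These are 73.3% and 60.0% of the 15 genes, beside 63.4% and 54.4% of all tested genes. By direction, all tested genes had 32.5% up and 30.9% down in 1-1 KO, and 28.2% and 26.2% in 1-2 KO. SLC4A4, a bicarbonate cotransporter 170 kb away, rose in both (log2 0.14 and 0.51, edgeR adjusted p = 0.0427 and 2.69e-06). NPFFR2, a neuropeptide receptor gene 228 kb away on the other side, had 0 to 2 counts in WT, 7 to 12 in 1-1 KO and 12 to 19 in 1-2 KO. RUFY3 was at log2 -0.87 and -0.15. Chromosome 4 as a whole had a median log2 of 0.15 in 1-1 KO and -0.02 in 1-2 KO over 671 tested genes. With scaling by library size alone, the count of rising genes within 2 Mb of ALB, AFP and AFM or of GC went from 5 to 9 of 28 in 1-2 KO.

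**Figure D5:**
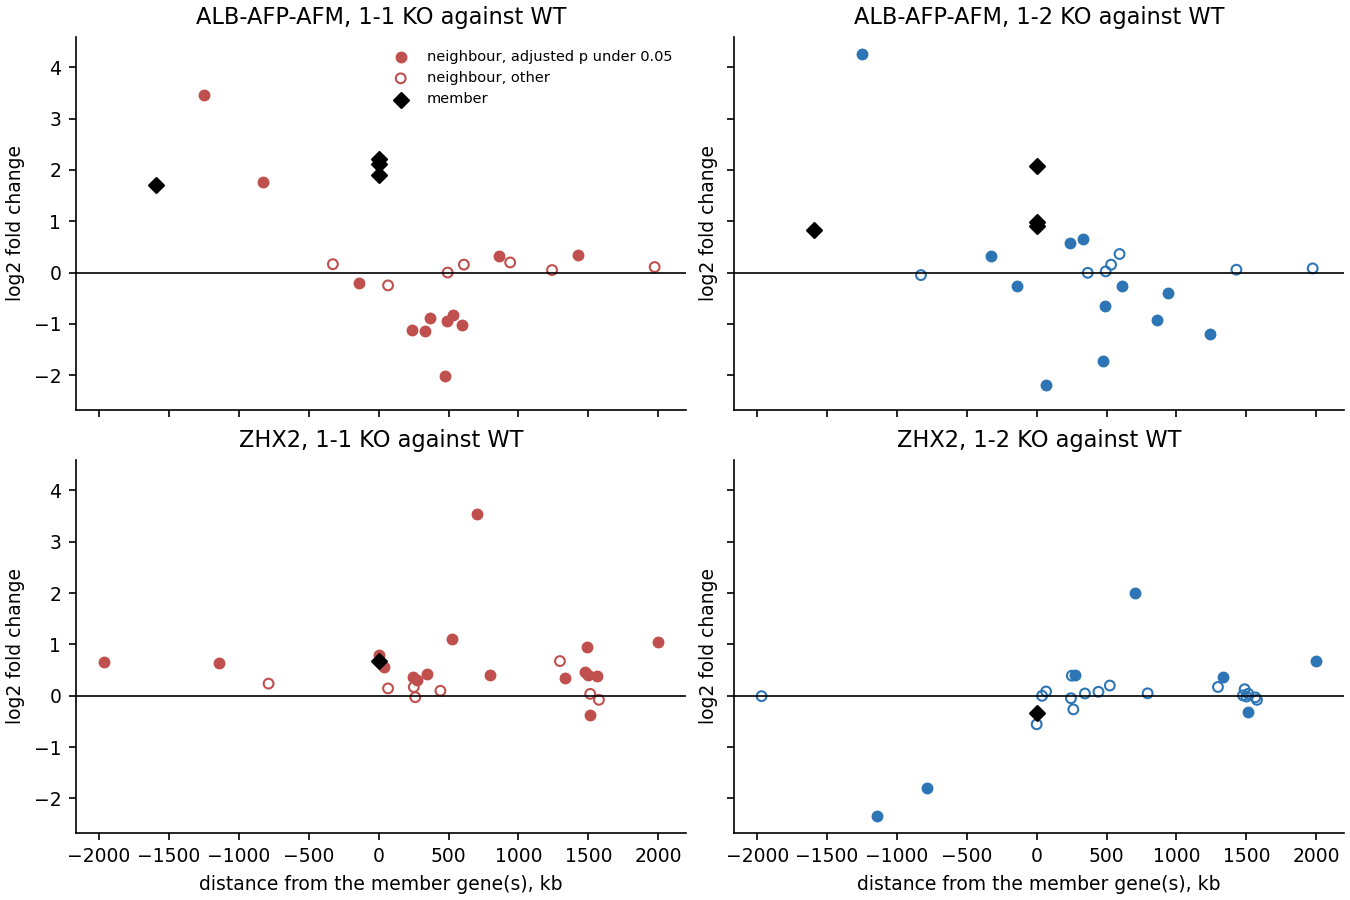
log2 fold change against WT (vertical axis) of tested genes within 2 Mb of ALB, AFP and AFM (top) and of ZHX2 (bottom), in 1-1 KO (left) and 1-2 KO (right), by distance from the member genes in kb (horizontal axis); diamonds are members, GC being the one at a distance at the top, and filled circles have an adjusted p under 0.05. Around the cluster, 4 of 19 genes rose and 8 fell in each knockout, whereas around ZHX2 16 of 25 rose in 1-1 KO and 4 in 1-2 KO. Over all tested genes 32.5% rose and 30.9% fell in 1-1 KO, and 28.2% and 26.2% in 1-2 KO. On chromosome 8, 279 of 584 tested genes rose in 1-1 KO and 182 in 1-2 KO.

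ZHX2 lay among genes that moved its way in 1-1 KO. Of 25 tested neighbours within 2 Mb, 16 rose and 1 fell in 1-1 KO, with a median log2 of 0.40, against 0.23 for the 584 tested genes of chromosome 8, of which 279 rose and 103 fell. Over all tested genes 32.5% rose and 30.9% fell. In 1-2 KO, 4 rose and 3 fell, beside 28.2% and 26.2% of all tested genes, with a median of 0.04, while ZHX2 was at -0.34. DERL1, 38.7 kb from ZHX2 and encoding a protein of endoplasmic reticulum degradation, rose in 1-1 KO (log2 0.57, edgeR adjusted p = 8.25e-09) and was at 66.8 ± 2.60 CPM in WT and 66.7 ± 0.988 in 1-2 KO (SD, n = 3). ENSG00000272384, 0.064 kb before ZHX2, had 7 to 10 counts in WT, 15 to 20 in 1-1 KO and 6 to 7 in 1-2 KO. HAS2, a hyaluronan synthase, was at log2 0.63 and -2.34, and ANXA13 at 3.53 and 2.00.

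Around ZBTB20 16 of 26 genes rose and 1 fell in 1-1 KO (median log2 0.27). In 1-2 KO 10 rose and 2 fell (median 0.11). In all, 65.4% and 46.2% were called, beside 63.4% and 54.4% of all tested genes. By direction, 32.5% of all tested genes rose and 30.9% fell in 1-1 KO, and 28.2% and 26.2% in 1-2 KO. The median over 1034 tested genes of chromosome 3 was 0.06 and 0.03. TIGIT, an immune checkpoint receptor gene 4.21 kb away, had 5 to 13 counts in WT, 37 to 41 in 1-1 KO and 7 to 15 in 1-2 KO. LSAMP, an adhesion gene 655 kb away on the other side, went from 0.466 ± 0.174 CPM in WT (12 to 25 counts) to 145 to 177 counts in 1-1 KO and 18.0 ± 0.759 CPM in 1-2 KO (SD, n = 3). CCDC80, a matrix protein gene, was at log2 2.61 and 1.90, and ATP6V1A, a subunit of the lysosomal proton pump, at 0.81 and -0.19.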

How the data were processed

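Per the labels and the study's methods, RNA of 9 Huh-7 libraries (3 lines, 3 each) was prepared with the TruSeq stranded mRNA kit. The authors aligned the reads to GRCh38 with STAR and counted them on genes with featureCounts. Tool versions and the strand setting were not given in the sources used here. The methods name a numbered version of the human reference, whereas exon lengths here came from GENCODE 44. Counts and lengths may thus rest on different annotations. The deposited values are raw counts. Of 60664 identifiers, 60463 had an entry in GENCODE 44. All 9 libraries were fitted together with edgeR 4.0.16 (R 4.3.3) after filterByExpr (minimum count 10, total 15) with TMM scaling, and the quasi-likelihood test gave p-values adjusted by the Benjamini-Hochberg method over 17207 genes, with a threshold of 0.05. Each SE was the log2 fold change, without its sign, divided by the square root of the F statistic of that test. For ALB and AFP it is given as a description, not as a test. CPM used TMM library sizes. Sequences came from RefSeq (GRCh38.p14); promoters of ALB, AFP and AFM are printed. The 6 members and 10 lists (79 genes, 78 in the table, 72 tested) were chosen with earlier results of these data known. Genes named were the members, all genes of lists with at most 4 tested, the 2 with the smallest adjusted p per knockout of longer lists and of the neighbours within 2 Mb, the nearest tested genes and the 3 most similar in pattern; untested genes were added after values were seen. Some genes that the rule selects are not reported here. Alternatives were DESeq2 1.42.0, other scalings and filters, a fit of the compared lines alone, a replicate term, an adjusted p under 0.01, other lengths and prior counts, and leaving out each library. The edgeR step was tested on simulated counts with known fold changes, for 1-1 KO against WT.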

Additional observations from a re-analysis of the deposited data

Results flagged for a closer look

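The difference between the 2 knockouts was tested directly for the 4 members taken by locus or function, and each differed in its response relative to WT. The set was drawn up with earlier results of these data known, so these tests are not free of that choice. As log2 of 1-2 KO against 1-1 KO, AFM was at -1.12 and GC at -0.89, both having risen in each knockout. ZHX2 was at -1.02, having risen in 1-1 KO and fallen in 1-2 KO. ZBTB20 was at -0.36, with neither knockout past the threshold against WT. The edgeR adjusted p was 8.45e-06 for AFM, 6.85e-09 for GC, 9.54e-10 for ZHX2 and 0.0107 for ZBTB20. Between the knockouts 65.3% of all tested genes were called.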

How the results depend on the processing

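For the members other than ZBTB20, 248 of 249 alternative values kept their direction and, where a test was run, their side of the threshold, or, for the untested ALB and AFP, moved by less than the spread between replicates. The other was AFP in 1-2 KO, still higher than WT, at log2 2.13 with scaling by library size alone. ZBTB20 in 1-1 KO against WT passed the threshold under DESeq2 (log2 0.25, adjusted p = 0.0395), library size alone (0.31, edgeR adjusted p = 0.0295), no filter (0.24, edgeR adjusted p = 0.00466) and at least 10 counts in every library (0.28, edgeR adjusted p = 0.0480). With the replicate number as a block it was 0.27 (edgeR adjusted p = 0.0477). Leaving out 1 library gave 0.10 to 0.37, with the threshold passed without WT replicate 1 or 2 or 1-2 KO replicate 1. In 1-2 KO against WT the range was -0.28 to 0.01; the sign turned without WT replicate 1 (0.013, edgeR adjusted p = 0.933) and the threshold was passed without WT replicate 3. Between the knockouts ZBTB20, at -0.36, missed an adjusted p under 0.01. The cause of these shifts was not tested. The numbers did not pair the libraries, with correlations of -0.187 to 0.0474 for the same number, and the block changed no other call of a member. Genes rising near the cluster in 1-2 KO numbered 9 in place of 5 with library size alone, and 4 to 7 without 1 library. With the longest transcript the log2 of AFP to ALB was -0.61 in WT, -0.29 in 1-1 KO and 0.56 in 1-2 KO. With a prior count of 0.5, 1 of the 3 genes most like AFP was shared. AFM, at 27 to 39 counts in WT, and ZBTB20 limit the precision.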
